A study of Homo sapiens with 24 samples.

Results

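The androgen receptor antagonist enzalutamide (ENZ) was compared with its absence in androgen-stimulated, ENZ-resistant prostate cancer cells by FAIRE-seq, which sequences the nucleosome-free DNA that stays in the aqueous phase when sheared, cross-linked chromatin is extracted with phenol. The cells were RES-A, a subline of the androgen-sensitive human line LNCaP that had been passaged in rising ENZ concentrations. The comparison was between 3 RES-A libraries given 10 nM dihydrotestosterone (DHT) and 10 µM ENZ together (DHT+ENZ) and 3 RES-A libraries given 10 nM DHT alone, each for 18 h, chosen by their sample titles as 6 of the 24 libraries of the series. All RES-A cells, those later given DHT alone included, had first spent 3 days in medium with 5% charcoal-stripped serum and 10 µM ENZ, so that the DHT libraries came from cells recently exposed to the antagonist. The other 18 libraries were RES-A given DMSO, the solvent, or 10 µM ENZ without DHT, and parental LNCaP given DMSO, DHT, ENZ or DHT+ENZ, where the parental cells had no ENZ in those 3 days. Every group had 3 biological replicates, RES-A was the only resistant subline assayed, and no resistant line of separate origin stood beside it.

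DHT enters the cell and binds the androgen receptor, which then moves to the nucleus and binds androgen response elements, most of them in enhancers far from the genes they control. Binding displaces or moves nucleosomes at these sites, so that they are recovered more strongly in an open-chromatin assay. ENZ competes with DHT for the ligand-binding domain of the receptor and also hinders its move to the nucleus and its contact with DNA. Prostate cancers that progress under the drug often keep a working receptor, through amplification, ligand-independent variants or the use of other receptors at the same elements. Open sites are described here by their hg19 coordinates. The genes at these sites, their sequences and the defining markers of prostate cells were not analysed here, because no annotation of that build was used.

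ENZ did not shift the size of the open chromatin landscape beyond the spread between libraries. The 3 DHT libraries held 169514, 176254 and 191488 peaks and the 3 DHT+ENZ libraries 184636, 192487 and 216942, so that the groups overlapped. The difference of 18936 peaks had an exact two-sided permutation p of 0.2, where 0.1 is the smallest that 3 against 3 libraries can give, and an adjusted p of 0.6 over 5 measures of the libraries. The covered length was 47.4 ± 4.0 Mb with DHT and 51.8 ± 3.5 Mb with DHT+ENZ (SD, n = 3; exact permutation p = 0.3, adjusted p = 0.6). The recovered background, which ranks libraries by depth, was 1.99, 1.81 and 3.16 reads per base with DHT and 2.18, 2.80 and 3.76 with DHT+ENZ (exact permutation p = 0.4, adjusted p = 0.6). Without DHT+ENZ replicate 3, the deepest of the 6 by this measure, the differences between the groups fell from 18936 to 9476 peaks, from 4.38 to 2.44 Mb and from 0.594 to 0.170 reads per base. The number of reads was not given.

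The location of the strongest sites separated the groups. To limit the effect of depth, each library was represented by the 50000 peaks ranked highest on the −log10 p of the authors' peak caller, called top-ranked here. The base-pair Jaccard index (the length held in common over the length either covers) was 0.651 ± 0.007 among DHT libraries and 0.654 ± 0.006 among DHT+ENZ libraries (SD over 3 pairs each), and 0.595 ± 0.015 between them (SD over 9 pairs). The highest index between the groups, 0.615, was below the lowest within either, 0.646. The group explained 34.3% of the variance in 1 minus the index (exact permutation p = 0.1, the smallest the design allows). DHT+ENZ libraries overlapped the RES-A libraries without DHT more than DHT libraries did. Their mean index was 0.628 with DMSO libraries and 0.638 with ENZ libraries, against 0.538 and 0.544 for DHT libraries.

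Merging the top-ranked peaks of the 6 libraries gave 71739 regions, of which 31378 had a top-ranked peak in all 6. A top-ranked peak in 3 of 3 DHT and 0 of 3 DHT+ENZ libraries was found at 1674 regions, 2.33% of those merged, and the reverse pattern at 1305, or 1.82%. These are termed separated regions, and they describe presence and absence with no test. At these regions, separation was a matter of rank and not of a peak's complete loss. Every one of the 1674 regions still had a lower-ranked peak in at least 1 DHT+ENZ library, and 96.2% had one in all 3. Of the 1305 regions of the reverse pattern, 99.3% had a lower-ranked peak in all 3 DHT libraries. Over all 71739 merged regions, 99.3% to 99.9% had a peak of any rank in each of the 6 libraries. Such presence was therefore not particular to the separated regions. With all deposited peaks in place of the top-ranked, 2859 and 2539 of 350657 merged regions were separated. These had no peak of any rank in the other group, so complete loss of a called peak also occurred. With top-ranked peaks, leaving out a library in turn gave 2217 to 2615 and 1845 to 2145. The highest counts came without DHT replicate 3 and without DHT+ENZ replicate 1, where the reduced group counted 2 libraries.

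The separated regions also differed in the 18 libraries that had no part in choosing them. Regions top-ranked only with DHT were top-ranked in 7.83% to 8.24% of cases in RES-A DMSO libraries and in 6.63% to 8.54% in RES-A ENZ libraries, while the same shares over all merged regions were 66.1% to 67.3%. Of the 1674 regions, 85.5% were top-ranked in none of the 3 DMSO libraries and 2.69% in all 3. Regions top-ranked only with DHT+ENZ behaved in the opposite way, with 79.2% to 81.0% top-ranked in the DMSO libraries and 80.0% to 86.7% in the ENZ libraries. Most sites that left the top ranks when ENZ was added to DHT were thus also outside them when no DHT was given, and most sites that entered them were within them without DHT.

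In parental LNCaP, too, the DHT libraries stood apart at these regions. Regions top-ranked only with DHT in RES-A were top-ranked in 49.9% to 56.2% of cases in the LNCaP DHT libraries, 32.1% to 38.3% with DHT+ENZ, 26.1% to 29.0% with DMSO and 17.0% to 22.8% with ENZ. The LNCaP DHT libraries lay above the other 9 parental libraries without overlap. For regions top-ranked only with DHT+ENZ in RES-A, the LNCaP DHT libraries were the lowest at 18.7% to 23.2%, and the DHT+ENZ libraries held 34.0% to 36.3%. Over all merged regions the parental shares were 42.8% to 56.7%, with the lowest in replicate 1 of LNCaP ENZ and in replicate 1 of LNCaP DHT, which had the lowest backgrounds of the series.

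**Figure D1:**
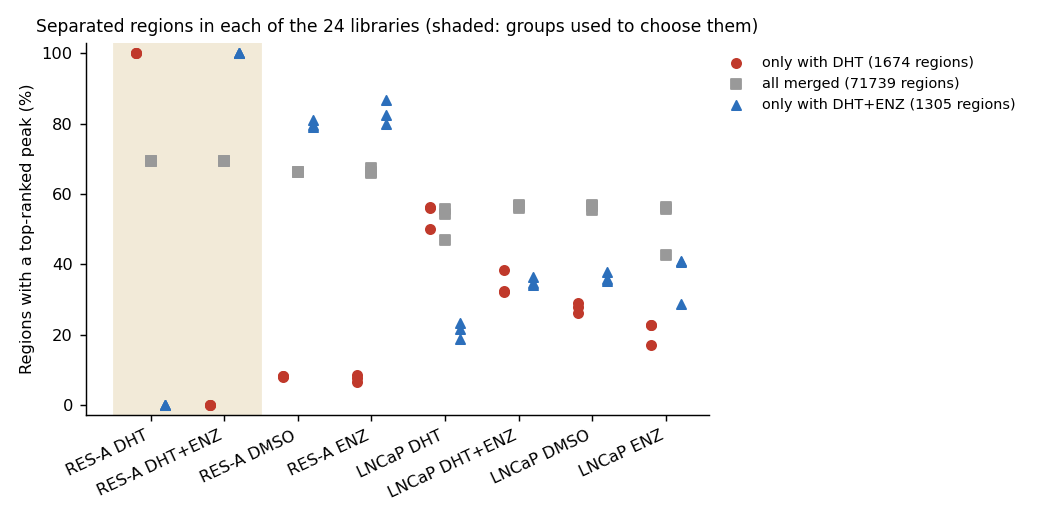
Percent of the separated regions and of all merged regions that overlapped a top-ranked peak, on the y axis, with a point for each of the 24 libraries by group. The shaded groups were used to choose the regions. In RES-A without DHT, regions top-ranked only with DHT sit below 9% and those only with DHT+ENZ above 78%. In LNCaP DHT the order is turned.

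The separated regions with the highest mean rank in the group that had them lay on several chromosomes. At chromosome 1, 160101672 to 160102227, the fold enrichment (the pileup of fragments at the summit over the expected pileup, as the peak caller gave it) was 12.4, 13.0 and 13.4 in the DHT libraries and 6.60, 6.84 and 3.57 in the DHT+ENZ libraries. No RES-A DMSO or ENZ library had a peak there, and the LNCaP DHT libraries had 5.75, 7.45 and 5.72. At chromosome 12, 6376256 to 6376711, the values were 11.2, 12.03 and 11.9 with DHT and 6.33, 5.89 and 4.41 with DHT+ENZ, and 2 of 6 RES-A libraries without DHT had a peak, at 4.24 and 3.08. At both sites every DHT+ENZ library lay below every DHT library and had a peak. The other 3 of this direction were at chromosome 1, 202318617 to 202318974, chromosome 10, 21581685 to 21582654, and chromosome 13, 30383385 to 30383752, with 7.40 to 10.3 in the DHT libraries and 3.69 to 6.79 in the DHT+ENZ libraries. The first and the second of these had a peak in all 6 RES-A libraries without DHT, at 2.88 to 4.04 and 5.21 to 6.34, and the site on chromosome 13 had one in 1 of them, at 3.005.

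In the opposite direction, the leading region was at chromosome 8, 94849986 to 94850445, with 5.68, 6.04 and 5.77 in the DHT libraries and 12.5, 10.8 and 10.7 in the DHT+ENZ libraries. RES-A DMSO libraries held 9.99, 9.81 and 10.8 and ENZ libraries 11.3, 12.6 and 12.5. No LNCaP DHT library had a peak at this site, whereas the LNCaP DHT+ENZ libraries had 3.26, 3.43 and 4.52. The other 4 were at chromosome 12, 104046574 to 104046997, chromosome 9, 46717413 to 46717911, chromosome 18, 41812464 to 41812952, and chromosome 2, 100889073 to 100889794. Their fold enrichment was 5.68 to 7.16 with DHT and 7.63 to 12.4 with DHT+ENZ. At each of the 4 every RES-A library without DHT was above every DHT library. The lack of a top-ranked peak in these DHT libraries was part of the choice. The site on chromosome 9 lies in the duplicated pericentromeric part of that chromosome, so its reads may be shared with near-identical copies.

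A graded comparison used all deposited peaks. Of 350657 merged regions, 106785 had a peak in all 6 libraries and were tested with limma on the log2 fold enrichment after quantile normalization, with a Benjamini-Hochberg adjusted p of 0.05 as the threshold. ENZ lowered 1477 regions, 1.38% of those tested, and raised 720, or 0.674%. The median log2 difference, DHT+ENZ minus DHT, was 0.01 over all regions, -0.78 over the lowered and 0.72 over the raised regions. The median fold enrichment of the lowered regions was 8.44 with DHT and 4.66 with DHT+ENZ, and that of the raised regions 5.51 and 9.20, both on the normalized scale. In bulk chromatin, a site open in fewer cells and a site less open in each cell cannot be told apart. The 6 libraries did not overlap between groups at 1475 of the 1477 and 715 of the 720, and they did not overlap at 20.5% of all tested regions. Changes were graded in size, since 161 of the lowered regions and 23 of the raised regions differed by more than 1 on the log2 scale, and all 184 regions tested with such a difference passed.

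The counts and their balance changed with the fit and with the regions tested. With the log2 background as a covariate, an alternative added after seeing the data, 297 regions were lower and 123 higher (70.7% lower, beside 67.2% without it), of which 292 and 112 were among those above. The covariate also takes up a residual degree of freedom, and the part of depth in the counts was not tested. Leaving out a library in turn gave 439 to 980 lower and 187 to 425 higher regions, with each of the 6 libraries moving both counts by over 1.5 times, and no called region changed sign in any of these fits. In another fit a peak was required in all 12 RES-A libraries. This removed 761 of the lowered but only 3 of the raised regions before any test, because the lowered sites often had no peak without DHT. All 12 libraries also entered the normalization and the model, which gave 632 lower and 969 higher of 98077. How far the requirement and the added libraries each changed these counts was not tested. Requiring a peak only in all 3 libraries of either group, with missing peaks at the library's lowest value, gave 4365 lower and 3217 higher of 143065. Of these, 2756 lower regions had no peak in any DHT+ENZ library and 2327 higher regions none in any DHT library. All values of that group were then filled in and not measured. This fit kept 935 of the 1477 lowered and 459 of the 720 raised regions.

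**Figure D2:**
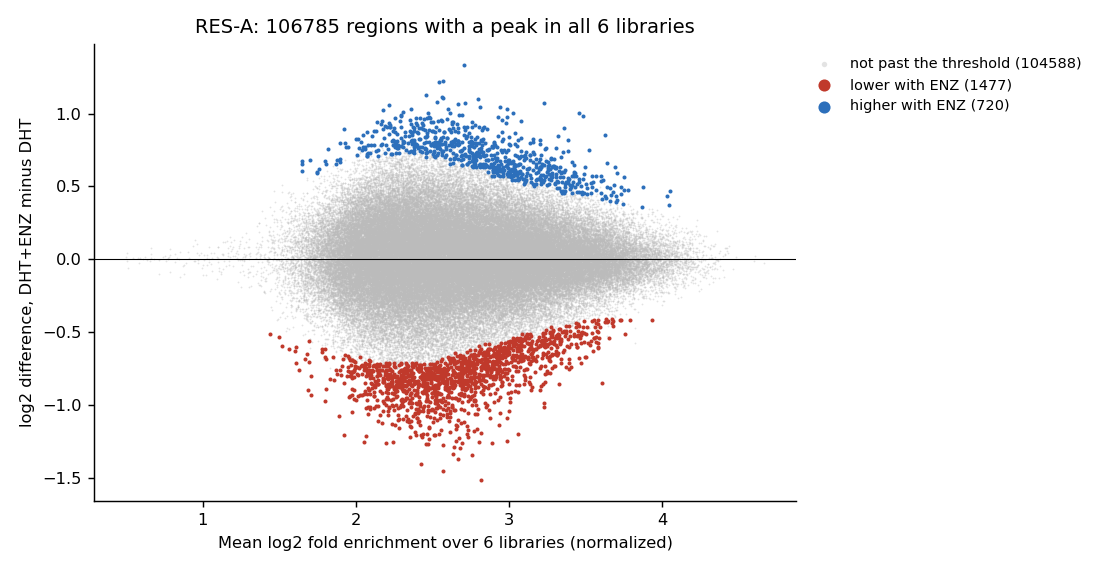
Each point is one of the 106785 RES-A regions, with the mean normalized log2 fold enrichment over 6 libraries on the x axis and the log2 difference, DHT+ENZ minus DHT, on the y axis. The 1477 lowered regions (red) reach -1.52 and the 720 raised regions (blue) reach 1.34.

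The 10 regions lowered most were chosen by the size of their difference, so the separation of the 2 groups at them follows from the choice. The largest drop was at chromosome 4, 16111990 to 16112424, where the fold enrichment was 14.6, 11.4 and 10.8 with DHT and 5.34, 3.95 and 3.36 with DHT+ENZ (log2 difference -1.52 ± 0.17 SE, adjusted p = 0.000803, limma). Only 1 of 3 DMSO libraries (3.22) and 1 of 3 ENZ libraries (3.36) of RES-A had a peak there. LNCaP DHT libraries held 7.17, 15.5 and 10.3, and LNCaP DHT+ENZ libraries 9.55, 8.20 and 7.12, so that in the parental cells these groups overlapped. At chromosome 5, 1364306 to 1364871, the DHT libraries had 10.4, 9.24 and 10.4 and the DHT+ENZ libraries 3.77, 3.95 and 2.94 (log2 difference -1.46 ± 0.18 SE, adjusted p = 0.000858, limma). Of the 6 RES-A libraries without DHT, 1 had a peak, at 3.08.

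The next site, at chromosome 5, 159409194 to 159409634, had 11.9, 8.55 and 6.98 with DHT and 3.14, 3.42 and 3.15 with DHT+ENZ (log2 difference -1.41 ± 0.20 SE, adjusted p = 0.00208, limma). No RES-A library without DHT had a peak at this site. At chromosome 14, 95031134 to 95031508, and chromosome 15, 99071582 to 99072061, too, none of the 6 RES-A libraries without DHT had a peak. Their DHT libraries held 9.62 to 10.7 and 10.3 to 11.7, and their DHT+ENZ libraries 3.36 to 4.47 and 3.36 to 5.97. At chromosome 17, 29887679 to 29888065, the DHT libraries were the most alike of the 10 regions (10.4, 10.1 and 10.3) and the DHT+ENZ libraries had 4.83, 4.36 and 3.15. LNCaP DHT libraries had 5.70, 6.29 and 4.87 there, while 1 of 3 LNCaP DHT+ENZ libraries (3.61) and no LNCaP DMSO library had a peak.

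The other 4 regions, at chromosome 15, 32267894 to 32268351, chromosome 5, 76624622 to 76625082, chromosome 6, 126491460 to 126491931, and chromosome 9, 46397307 to 46397761, had log2 differences of -1.37, -1.29, -1.27 and -1.27. Across all 10, none had a peak in all 3 RES-A DMSO libraries and 6 had a peak in none of them. In the parental cells, 7 of the 10 had a peak in all 3 LNCaP DHT libraries and 7 in all 3 LNCaP DHT+ENZ libraries. The LNCaP DMSO libraries, too, had a peak at each of the 10 sites except that on chromosome 17. At the site on chromosome 4, for example, they held 7.82, 9.42 and 4.74. The frequent lack of a peak with DMSO was therefore seen in RES-A and less so in LNCaP. The site on chromosome 9 lies in the pericentromeric part of that chromosome, which is rich in duplicated sequence, so that its reads may be shared with near-identical copies.

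The 10 regions raised most were open in every RES-A library without DHT. At chromosome 18, 70592503 to 70592980, the fold enrichment was 3.34, 3.91 and 5.62 with DHT and 9.90, 10.2 and 10.5 with DHT+ENZ (log2 difference 1.34 ± 0.20 SE, adjusted p = 0.00231, limma). RES-A DMSO libraries held 10.6, 11.7 and 12.1 and ENZ libraries 11.8, 11.5 and 10.3, so that within RES-A the DHT libraries alone were low. LNCaP libraries of every treatment were low or without a peak there, with 3.91, 3.94 and 4.31 under DMSO. At chromosome 3, 127325721 to 127326134, the DHT libraries had 4.01, 3.55 and 4.33 and the DHT+ENZ libraries 9.11, 10.5 and 7.35 (log2 difference 1.22 ± 0.19 SE, adjusted p = 0.00278, limma). At chromosome X, 154021265 to 154021933, the values were 5.01, 4.62 and 4.81 with DHT and 11.2, 11.3 and 7.96 with DHT+ENZ (log2 difference 1.10 ± 0.16 SE, adjusted p = 0.00253, limma). This was the one raised region of the 10 with a peak in all 12 LNCaP libraries, at 3.01 to 4.60 with DHT and 4.92 to 5.36 with DHT+ENZ, groups that did not overlap.

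A site at chromosome 3, 14399973 to 14400299, had 5.35, 4.98 and 3.61 with DHT and 10.7, 8.42 and 9.03 with DHT+ENZ (log2 difference 1.08 ± 0.18 SE, adjusted p = 0.00472, limma), with 7.79 to 11.3 in the 6 RES-A libraries without DHT. None of the 12 LNCaP libraries had a peak there. At chromosome 9, 38008265 to 38008708, the level was the highest of the 10, with 8.02, 8.17 and 4.33 under DHT and 15.1, 15.4 and 10.3 under DHT+ENZ. The other 5 were at chromosome 9, 69481303 to 69481738, chromosome 8, 21888300 to 21888682, chromosome 10, 98824666 to 98825281, chromosome 6, 149169127 to 149169439, and chromosome 5, 13606222 to 13606566, with log2 differences of 1.218, 1.129, 1.116, 1.108 and 1.079. At all 10, every DMSO and every ENZ library of RES-A lay above every DHT library. The choice by size of difference favours low values in these same DHT libraries, so this order follows in part from it. The sites at 69481303 on chromosome 9 and at 38008265 lie in or beside its duplicated pericentromeric part, with the same limit as above.

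**Figure D3:**
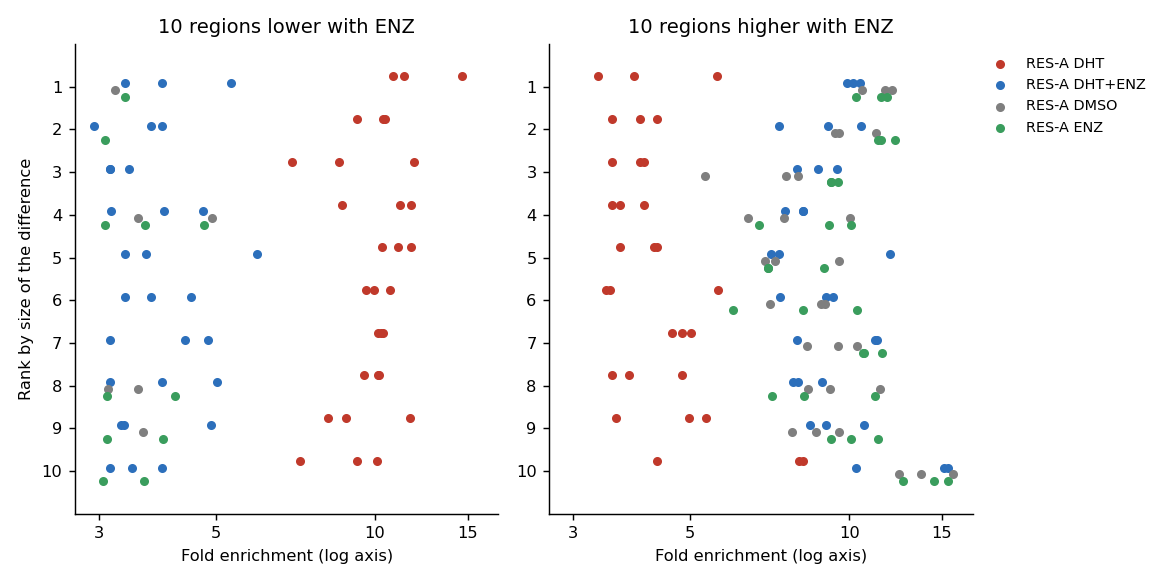
Fold enrichment on a log axis at the 10 regions most lowered (left) and the 10 most raised (right) by ENZ, ranked by the size of the difference, with a point for each of 12 RES-A libraries that had a peak. On the left, DHT libraries sit at 6.98 to 14.6 and all other libraries at 5.97 or less. On the right, DHT libraries are to the left of the DHT+ENZ, DMSO and ENZ libraries at each region. The regions were chosen by the difference between the DHT and DHT+ENZ libraries.

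Across the full sets, the called regions followed the same division in RES-A libraries that the fit did not use. Levels are given as log2 fold enrichment relative to the median, in each library, of regions with a peak in all 24. Lowered regions had a peak in 70.2% ± 4.5 of cases with DMSO and 78.1% ± 6.6 with ENZ (SD, n = 3), beside 97.0% ± 0.8 and 97.6% ± 1.2 of all tested regions. Where a peak was present, their median level was -1.09 ± 0.05 with DMSO, -1.05 ± 0.06 with ENZ, -0.92 ± 0.03 with DHT+ENZ and -0.09 ± 0.04 with DHT. The level of all tested regions was -0.44 with DMSO and with ENZ, -0.48 with DHT+ENZ and -0.49 with DHT. The test required a peak in every DHT+ENZ library, so the full presence of peaks in that group was set by the choice of regions. Raised regions had a peak in 99.9% of cases with DMSO and with ENZ, at medians of 0.01 ± 0.05 and 0.07 ± 0.02, beside 0.03 ± 0.02 with DHT+ENZ and -0.70 ± 0.05 with DHT.

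Top ranks gave a similar picture. The lowered regions were top-ranked in 75.8% to 81.0% of cases in DHT libraries, 14.2% to 15.8% in DHT+ENZ libraries, 6.03% to 6.50% in DMSO libraries and 7.11% to 8.06% in ENZ libraries. The first 2 of these ranges belong to the fitted libraries, and the share over all tested regions was 46.1% to 46.6% in every RES-A library. The raised regions were top-ranked in 21.1% to 27.2% of cases with DHT, 78.9% to 82.9% with DHT+ENZ, 75.4% to 76.8% with DMSO and 78.2% to 81.4% with ENZ.

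Without DHT, the lowered regions were not lower with ENZ at their median. RES-A ENZ minus DMSO shares no library with the comparison above, and could be computed at 716 of the 1477 lowered regions, those with a peak in all 6 of these libraries. Its median log2 difference was 0.08 there, with 32.0% of regions below 0, and 0.01 over 98077 tested regions, with 48.2% below 0. At 717 of the 720 raised regions the median was 0.04, with 40.2% below 0.

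Where the parental cells could be compared, most of these regions differed with the same sign, with values for 868 of the 1477 lowered and 184 of the 720 raised regions. In LNCaP, DHT+ENZ minus DHT, again with no library in common, had a median log2 difference of -0.37 at the 868, those with a peak in all 6 parental libraries, and 94.5% were below 0. At the 184 raised regions the median was 0.22 and 16.3% were below 0. Over all 49123 such regions the median was -0.05 and 58.8% were below 0. Without LNCaP DHT replicate 1, a shallow library, the medians were -0.36 at 1077 lowered, 0.26 at 397 raised and -0.01 at 79309 regions in all, with 93.9%, 10.3% and 52.1% below 0. LNCaP DHT minus DMSO, which shares its DHT libraries with the preceding values, had medians of 0.48 at the lowered, -0.24 at the raised and 0.06 at all regions with a peak in all 6.

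Few or no single regions passed the threshold in the parental cells. The same limma fit in LNCaP called 0 of 57590 regions (0%; 5953 at an unadjusted p of 0.05). Without LNCaP DHT replicate 1 it called 61 of 105954 regions, 0.0576%, with 41 lower and 20 higher. Of the 1077 regions that were lowered in RES-A and tested there, 16 were called lower, beside 21 of all 79309 regions tested in both fits. Of the 397 that were raised in RES-A, 0 were called higher, beside 15 of the 79309, and 141 were higher at an unadjusted p of 0.05. At an unadjusted p of 0.05 the LNCaP fit had 40.8% of the 868 lowered regions lower and 33.7% of the 184 raised regions higher, beside 4.23% and 4.98% of all tested regions.

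**Figure D4:**
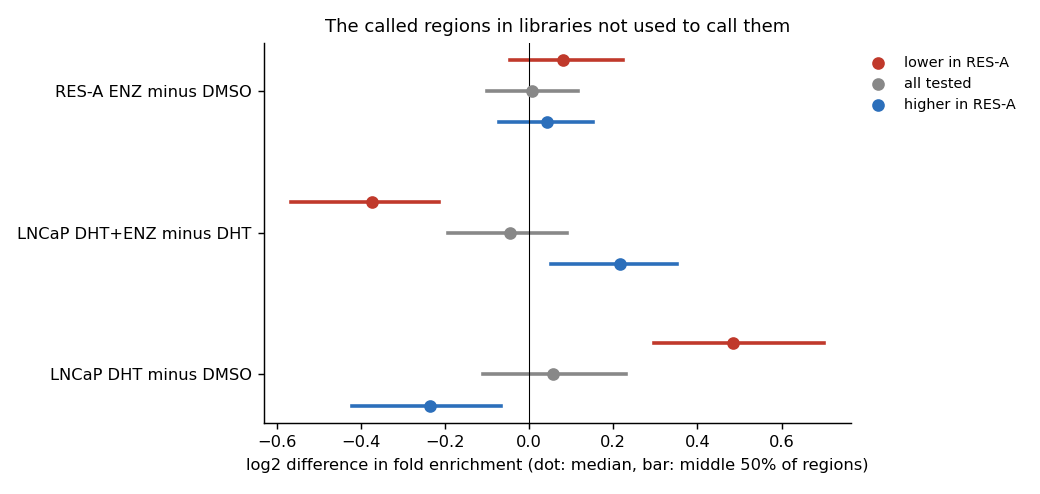
Median log2 difference (dot) and its middle 50% over regions (bar) in comparisons of libraries that were not used to call the regions, for the sets lowered and raised in RES-A and for all tested regions. The median of RES-A ENZ minus DMSO stays within 0.08 of 0 for every set, whereas LNCaP DHT+ENZ minus DHT is at -0.37 for lowered and 0.22 for raised regions. LNCaP DHT minus DMSO, with the same LNCaP DHT libraries, has the opposite signs.

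The difference between the sublines was tested as an interaction at the 49123 regions with a peak in all 12 DHT and DHT+ENZ libraries. Limma called none (0%) at an adjusted p of 0.05, and 2721 regions had an unadjusted p under 0.05. The test covered 58.8% of the lowered and 25.6% of the raised regions of RES-A. The smallest p was at chromosome 8, 81620384 to 81621192, with an interaction of 1.33 ± 0.23 SE (adjusted p = 0.577, limma). In the fits of each subline alone, which were normalized separately and so do not sum to this value, the log2 difference there was 0.24 in RES-A and -0.94 in LNCaP. The next of this sign were at chromosome 7, 142204 to 142901, and chromosome 5, 29485422 to 29485902, with interactions of 1.06 and 0.80. The leading 3 of the other sign were at chromosome 4, 156344689 to 156345233, chromosome 15, 75100427 to 75100934, and chromosome 1, 33172121 to 33172557, with -0.96, -0.90 and -0.88. The adjusted p of these 5 was 0.882 (limma). A difference between the sublines in the response to ENZ was therefore not detectable at single sites with these libraries.

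The sets also differed in form and place. Lowered regions were longer than all tested regions, with a median of 452 bp against 404 bp, and raised regions had 418 bp. Calls varied with the strength of the site. In 5 equal bins of the mean fold enrichment, from weakest to strongest, 0.885%, 1.62%, 1.93%, 1.63% and 0.848% of regions were lowered and 0.262%, 0.543%, 0.852%, 0.960% and 0.754% were raised. The lowered share was thus higher in the middle bins, between 4.60 and 9.09, than in the weakest and the strongest. The raised share was highest in the bin next to the strongest. The mean takes in both groups, so a region's bin depends in part on its difference. Another lowered region lay within 50 kb of 8.94% of lowered, 5.28% of raised and 6.70% of all tested regions. Another raised region lay within 50 kb of 5.00% of raised, 2.84% of lowered and 3.31% of all tested regions.

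Most called regions stood alone, but so did most tested regions with respect to the calls. Another lowered region lay within 50 kb of 8.94% of lowered and 6.70% of all tested regions. For another raised region the shares were 5.00% of raised and 3.31% of all tested regions. Chaining lowered regions whose midpoints were at most 50 kb apart left 1345 single regions, 60 pairs and 4 groups of 3, and raised regions formed 684 single regions and 18 pairs. The group with the shortest span was at chromosome 9, 288041 to 312988, where 3 of 6 tested regions were lowered, with log2 differences from -0.99 to -0.67, and 1 was raised. At chromosome 8, 25815583 to 25894480, 3 of 5 tested regions were lowered (log2 differences of -0.71 to -0.56). At chromosome 8, 56882664 to 56932514, 3 of 6 were lowered (-0.88 to -0.62), and at chromosome 3, 161107989 to 161172827, 3 of 9 (-0.78 to -0.70). These groups were chosen after their values were seen.

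Both sets were spread over all chromosomes. The lowered share of tested regions ran from 0.522% on chromosome 19 to 1.85% on chromosome 9, and the raised share from 0.445% on chromosome 6 to 2.09% on Y, where 8 of 383 regions were raised. Chromosome 19 had the lowest lowered share, with 13 lowered and 27 raised of 2489 regions, and its raised share of 1.08% was below only those of Y and of chromosome 22 (1.20%). Chromosomes 19 and Y were the only ones with more raised than lowered regions. The shares of single chromosomes are a description with no test.

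**Figure D5:**
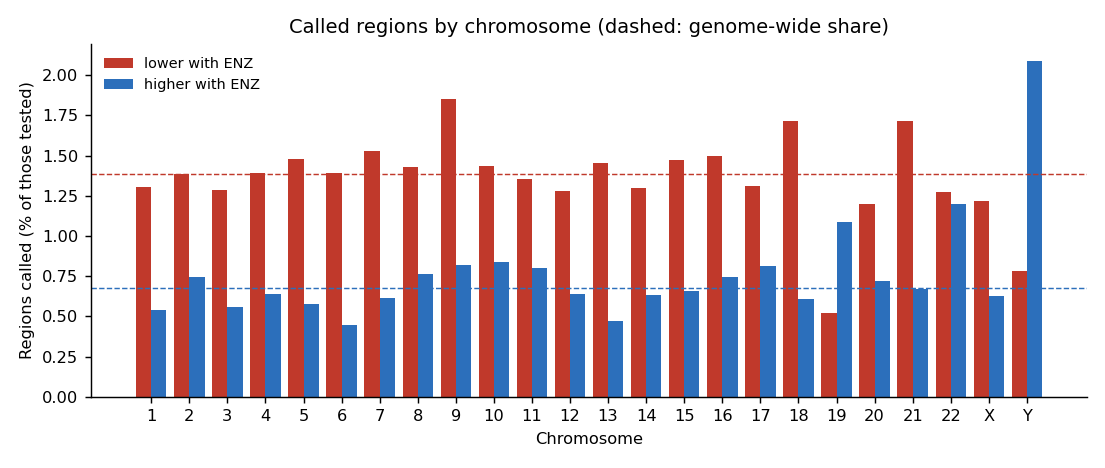
Percent of the tested regions that ENZ lowered (red) or raised (blue) on each chromosome in RES-A, with the shares over all chromosomes, 1.38% and 0.674%, as dashed lines. Most chromosomes lie near both lines, whereas chromosome 19 has 0.522% lowered and 1.08% raised.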

How the data were processed

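FAIRE DNA was sequenced by the authors as 50-bp single-end reads and aligned to hg19 with bwa 0.7.8-r455, duplicates were marked with Picard 1.118, and peaks were called in each library with MACS2 2.1.0. The caller's options and any control library were not given in the sources used here. Columns of the deposited lists are the peak's position, the pileup at its summit (a signal that is not scaled between libraries), −log10 of p and q, and a fold enrichment, a ratio over the expected pileup. The deposited coordinates lay beyond the GRCh38 end on 15 of 24 chromosomes, so no GRCh38 annotation was applied.

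Peaks on chromosomes 1 to 22, X and Y were merged when they overlapped by at least 1 bp. Variance shares came from permutational analysis of 1 minus the Jaccard index. The background was the lowest value of (pileup + 1) / fold − 1 in a library and assumes that the caller added 1. A region's value was the highest fold enrichment in it, on the log2 scale with no pseudocount. Differences were tested with limma 3.58.1 (lmFit, eBayes with trend) in R 4.3.3 after quantile normalization, with Benjamini-Hochberg adjustment over all regions tested, and the fit was tested on simulated data. Single values were compared by exact permutation. Groups and replicate numbers came from the sample titles. After subtracting group means, libraries with the same number correlated at 0.04, -0.01 and 0.03, and those with different numbers at -0.05 to 0.02. With all values this small, the numbers were not taken to pair the libraries in the main fit. Peak counts rose with the number in both groups, and whether the numbers mark pairs was not tested.

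From the fit, the 10 called regions of each direction that differed most are named, with the 5 separated regions per direction of highest mean percentile on −log10 p and the 3 per direction with the smallest interaction p. The members and lists were chosen with earlier results of these data known.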

Additional observations from a re-analysis of the deposited data

How the results depend on the processing

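Most values kept their direction, but many called regions did not stay past the threshold. Leaving out a library kept 420 to 799 of the 1477 lowered and 163 to 320 of the 720 raised regions past it. With the log2 background as a covariate, 292 and 112 stayed. The counts of regions moved too. The median fold enrichment of the top-ranked peaks also varied, where DHT+ENZ minus DHT was -0.328. It ran from -0.76 to 0.0649 on leaving out a library, turning sign without DHT+ENZ replicate 3. Separated regions numbered 1027 (only with DHT) and 837 (only with DHT+ENZ) among the 25000 top-ranked peaks and 2859 and 2539 among all deposited peaks, and ran from 2217 to 2615 and from 1845 to 2145 when a library was left out and its group counted 2 libraries. With limma, the lower and higher regions numbered 5503 and 3935 on the pileup, 132 and 97 within the top-ranked peaks, 4365 and 3217 with a peak required in all 3 libraries of either group, 632 and 969 with a peak required in all 12 RES-A libraries, and 297 and 123 with the log2 background as a covariate. They ran from 439 to 980 and from 187 to 425 when a library was left out. The lowest counts came without DHT replicate 2 (439 lower) and without DHT+ENZ replicate 2 (187 higher), and leaving out any of the 6 libraries moved both counts by over 1.5 times. Fewer regions were tested within the top-ranked peaks and with the 12 RES-A libraries, and a library fewer entered each fit that left a library out. The fit with a peak required in all 12 RES-A libraries also held all 12 in the model. With the peak required in either group, missing peaks were filled in at the library's lowest value. The causes of these changes in counts were not tested. With the replicate block, which takes libraries of the same number as paired, 1386 regions were lower and 694 higher. The difference in peaks stayed at 18936 (exact sign-flip p = 0.25, the smallest possible). The group's share of variance stayed at 34.3% (exact permutation p within the block = 0.25). The interaction had 0 calls in limma under every alternative run, with 2926 regions at an unadjusted p under 0.05 after median centring and 2938 with the replicate block. Of 249 values of the 20 regions named from the fit, recomputed where they were tested, 248 stayed past the threshold and none changed sign. A further 31 values were not available, as the region was not tested in that setting. The 20 regions had been chosen for the largest differences. TSS-proximal shares and their alternatives, gene lists, motif shares and marker promoters were not run, for want of an hg19 annotation here. Depth is known only as a rank, and sites below the peak threshold of a library have no value.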
